A study of Homo sapiens with 6 samples.

Results

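Glypicans and syndecans are the 2 families of cell-surface heparan sulfate proteoglycans, and the 10 human genes GPC1 to GPC6 and SDC1 to SDC4 were taken by symbol from a table of 57820 genes. All 10 matched an Ensembl gene of the table. Bulk RNA sequencing had been done on motor neurons grown from the human embryonic stem cell line H9, with the genotype given as WT. In the 3 simulated microgravity (SMG) libraries microgravity was simulated with a 2D clinostat, which rotates a culture so that the pull of gravity keeps changing direction, and the 3 normal gravity (NG) libraries carried no such treatment. Motor neuron progenitors of both groups had been differentiated in medium with 0.01 µM retinoic acid and 0.1 µM SAG, an agonist of Hedgehog signalling. All libraries come from this single cell line, the time on the clinostat is not stated, and nothing in the labels gives separate cultures for them. The p-values therefore measure the spread among these libraries alone, and that spread may be technical.

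Heparan sulfate is a long sulfated sugar chain that binds growth factors, morphogens and guidance cues. Glypicans carry these chains on a protein held in the outer membrane leaflet by a lipid (GPI) anchor, which enzymes can cut, whereas syndecans span the membrane and end in a short cytoplasmic tail that binds scaffold proteins. In developing nervous tissue both families are known as co-receptors for FGF, Wnt, Hedgehog and Slit signals and for axon growth. By sequence the glypicans form a subfamily of GPC1, GPC2, GPC4 and GPC6, in which GPC4 and GPC6 are close relatives, and a subfamily of GPC3 and GPC5. GPC3 and GPC4 are neighbours on chromosome X, and GPC5 and GPC6 on chromosome 13.

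The promoter sequences are shown for GPC1, which had the highest fold change of the members, for GPC6, which had the lowest, and for GPC4, the relative of GPC6 that moved the other way. Each is the RefSeq window from 250 bases before to 50 bases after the gene's start on build GRCh38.p14, 5′ to 3′ on the gene's strand, which is another build than the hg19 of the deposited counts. The windows are chr2:240435413-240435712 on the plus strand for GPC1, chrX:133415440-133415739 on the minus strand for GPC4 and chr13:93226557-93226856 on the plus strand for GPC6. Capitals mark ACGTG and GCGTG on either strand, the core letters of the hypoxia response element.
GPC1: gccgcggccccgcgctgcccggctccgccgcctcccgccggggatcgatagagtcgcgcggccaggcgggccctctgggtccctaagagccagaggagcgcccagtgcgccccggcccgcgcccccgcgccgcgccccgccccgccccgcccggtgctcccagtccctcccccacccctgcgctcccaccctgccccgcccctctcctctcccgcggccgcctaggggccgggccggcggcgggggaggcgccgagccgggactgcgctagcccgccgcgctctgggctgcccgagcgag
GPC4: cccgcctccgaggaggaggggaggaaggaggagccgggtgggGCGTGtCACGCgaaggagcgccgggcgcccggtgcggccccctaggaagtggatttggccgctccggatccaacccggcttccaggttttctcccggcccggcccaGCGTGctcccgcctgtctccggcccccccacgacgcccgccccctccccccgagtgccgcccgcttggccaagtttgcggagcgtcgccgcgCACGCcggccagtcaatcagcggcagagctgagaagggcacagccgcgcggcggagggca
GPC6: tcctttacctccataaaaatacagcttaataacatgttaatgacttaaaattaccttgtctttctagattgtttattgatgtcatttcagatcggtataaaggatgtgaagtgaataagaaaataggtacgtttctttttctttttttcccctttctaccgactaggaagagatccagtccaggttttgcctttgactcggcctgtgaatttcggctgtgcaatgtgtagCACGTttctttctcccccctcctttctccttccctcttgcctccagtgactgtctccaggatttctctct
The GPC1 window held 45 CpG dinucleotides at a GC content of 83.3%, the GPC4 window 37 at 74.7% and the GPC6 window 6 at 40.0%. Over the 35116 windows searched, the median was 14 CpG dinucleotides and 58.7% GC. Matches to the marked letters numbered 0 in GPC1, 4 in GPC4 and 1 in GPC6. Of the windows searched 48.4% held at least 1 match and 10.1% at least 3. The windows of the other members held 0 to 2, and overlapping matches were each counted. The windows searched did not cover every gene, and 8 of the 10 members had a window among them. A match describes the letters alone, and no binding was measured.

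The libraries held 16329907 to 22685870 counts each. Replicates differed beyond sampling noise, with a chi-square per degree of freedom of 1.53 to 3.11 over genes with at least 10 counts in the pair, and none were merged. Levels are CPM, counts scaled to the library total after TMM scaling, and fold changes are on the log2 scale as SMG minus NG ± SE from edgeR's quasi-likelihood test, with n = 3 libraries per group. The p-values were adjusted over all 17803 genes tested, with a threshold of 0.05.

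All 10 members passed the filter on low counts, 3 rose in SMG (GPC1, GPC2 and GPC4), 4 fell (GPC3, GPC6, SDC1 and SDC2) and 3 did not pass (GPC5, SDC3 and SDC4). Among all genes tested 35.8% passed, 17.3% higher and 18.5% lower, and among the 8423 genes with a mean of at least 20 CPM, where 8 of the members lie, 52.5% passed. The same 7 members were those whose groups did not overlap in CPM, which was so for 46.3% of all genes tested. With the trend over transcript length and GC removed, the same 3 rose and the same 4 fell, where 31.3% of all genes passed. The 3 rises were in glypicans, while the glypicans GPC3 and GPC6 fell. None of the 4 syndecans rose, where 17.3% of all genes tested did, and a difference between the families was not tested. The median log2 fold change of the members was -0.07, where the median of all genes was 0.00 and their median absolute change was 0.162. The spread among members ran from -0.47 to 0.39, a fold of 0.721 to 1.31, so that no member's estimate reached 1.5-fold. In bulk RNA, fewer cells of a type and less RNA per cell cannot be told apart.

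**Figure D1:**
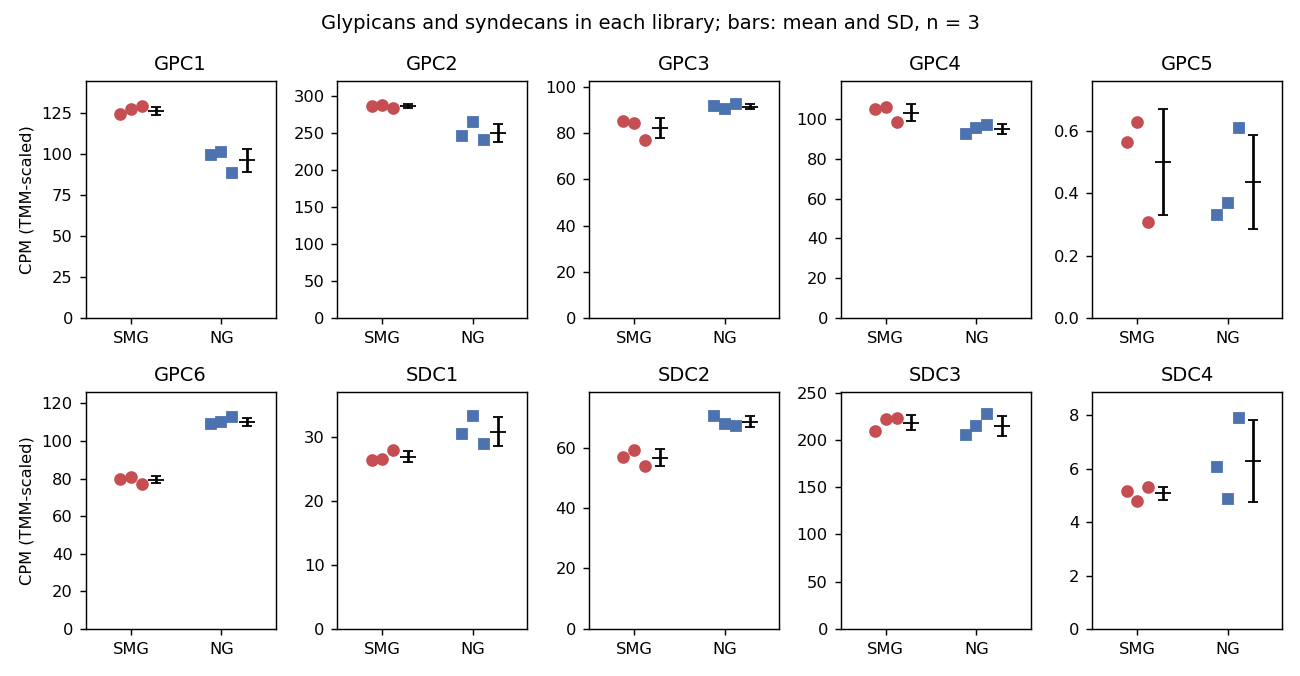
CPM after TMM scaling (vertical axes, each from 0) of the 10 members in each library, with SMG as circles and NG as squares, and beside each group its mean and SD (n = 3). GPC1, GPC2 and GPC4 are higher in every SMG library than in every NG library, GPC3, GPC6, SDC1 and SDC2 are lower, and GPC5, SDC3 and SDC4 overlap.

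GPC1 (ENSG00000063660), a glypican of neurons and many other cells that binds Slit and FGF ligands, had 124, 127 and 129 CPM in SMG, against 99.5, 101 and 88.0 CPM in NG. The lowest SMG library lay above the highest NG library. It rose by 0.39 ± 0.04 (1.31-fold, 95% interval 1.24 to 1.40, edgeR adjusted p = 4.18e-08). GPC1 also has the most GC-rich transcript of the members, at 66.7%. In these libraries genes whose longest transcript had at least 55% GC had a median of 0.13, and those below 45% had a median of -0.08. With each library's trend over transcript length and GC removed, GPC1 was at 0.21 ± 0.03 (edgeR adjusted p = 5.74e-06). What part of the change the trend accounts for was not tested.

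GPC1-AS1, a non-coding gene on the opposite strand whose 3235 exon bases all lie inside the GPC1 gene and none in its exons, was named after its values were seen. It had 4.01, 3.77 and 3.42 CPM in SMG, against 2.03, 2.34 and 1.83 CPM in NG, and rose by 0.85 ± 0.16 (edgeR adjusted p = 1.12e-04). All SMG libraries were above all NG libraries. No source used here gives the strand setting of the counting, so reads of GPC1-AS1 and of unspliced GPC1 transcripts cannot be told apart.

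GPC2 (ENSG00000213420), also called cerebroglycan and known in rat for its restriction to developing neurons, was the member with the most counts. It had 286, 288 and 283 CPM in SMG, against 246, 264 and 241 CPM in NG, with every SMG library above every NG library. The rise was 0.19 ± 0.03 (1.14-fold, 95% interval of the log2 value 0.12 to 0.26, edgeR adjusted p = 8.81e-05). Its longest transcript has 61.2% GC, and with the trend removed GPC2 was at 0.08 ± 0.03 (edgeR adjusted p = 0.0241).

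GPC4 (ENSG00000076716), known in mouse from neural progenitors and as a factor from astrocytes that promotes synapse formation, had 105, 106 and 98.2 CPM in SMG, against 92.1, 95.1 and 96.9 CPM in NG. The groups did not overlap, although SMG replicate 3 and NG replicate 3 lay close together. GPC4 rose by 0.12 ± 0.04 (1.09-fold, 95% interval of the log2 value 0.04 to 0.21, edgeR adjusted p = 0.0162), and with the trend removed by 0.15 ± 0.04. This was the smallest change that passed among the members. The call ended without SMG replicate 1 (adjusted p = 0.0677), SMG replicate 2 (0.115) or NG replicate 1 (0.0984), and with DESeq2 (0.0524).

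GPC6 (ENSG00000183098), the relative of GPC4 that shares its synapse-promoting role in rodent neurons, had 79.9, 81.1 and 77.4 CPM in SMG, against 109, 110 and 113 CPM in NG. The libraries of each group lay close together, and the gap between the groups was wide. GPC6 fell by 0.47 on the log2 scale, with an SE of 0.04 (0.721-fold, 95% interval 0.683 to 0.761, edgeR adjusted p = 1.57e-10). The fall was about as deep with the trend removed (-0.43 ± 0.03) and over all alternatives (-0.49 to -0.43). An annotated antisense gene shares 476 exon bases with GPC6 and has no row in the table, while GPC6-AS1 and GPC6-AS2 had at most 3 counts in any library.

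GPC3 (ENSG00000147257), which binds Hedgehog ligands and restrains their signalling, had 85.0, 84.5 and 77.0 CPM in SMG, against 91.5, 90.5 and 92.3 CPM in NG. All SMG libraries were below all NG libraries, with SMG replicate 3 the lowest. GPC3 fell by 0.15, with an SE of 0.04 (0.898-fold, 95% interval 0.846 to 0.954, edgeR adjusted p = 0.00478), and without SMG replicate 3 the value was -0.11 (adjusted p = 0.0739). GPC5 (ENSG00000179399), the other gene of that subfamily, was near the limit of detection, with 12, 14 and 7 counts in SMG, against 7, 6 and 10 counts in NG. These counts leave its fold between 0.657 and 2.06 (95% interval), so that a change within this range was not detectable at this depth.

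**Figure D2:**
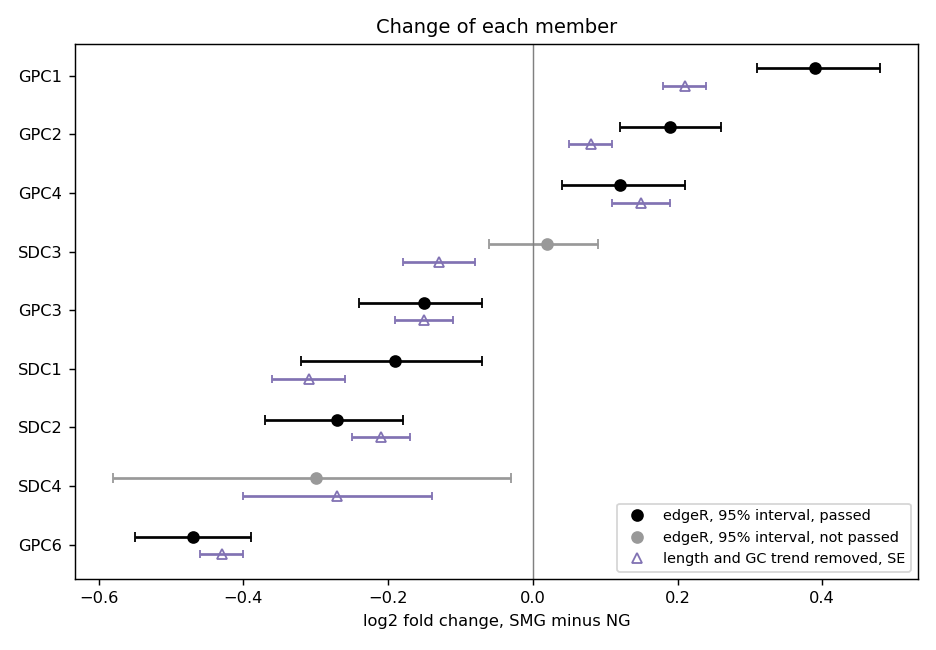
Log2 fold change, SMG minus NG (horizontal axis), of 9 members, with GPC5 left out for its wide interval. Circles are edgeR values with 95% intervals (black where the test was passed, grey where not) and triangles are values with the length and GC trend removed, with SE: GPC1 at 0.39 and 0.21, GPC6 at -0.47 and -0.43.

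Among the syndecans SDC1 and SDC2 fell, and SDC3 and SDC4 did not pass. SDC3 (ENSG00000162512), also called N-syndecan, a receptor of pleiotrophin on axons, had 209, 222 and 223 CPM in SMG, against 205, 215 and 227 CPM in NG. The groups overlapped almost fully. SDC3 was at 0.02 ± 0.04 (edgeR adjusted p = 0.749), and its 95% interval, 0.960-fold to 1.07-fold, leaves room for small changes alone. With the trend removed it was at -0.13 ± 0.05 (adjusted p = 0.0734).

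SDC2 (ENSG00000169439), known in rat for a role in the maturation of dendritic spines, had 57.0, 59.2 and 53.9 CPM in SMG, against 70.5, 67.9 and 67.1 CPM in NG. Every SMG library was below every NG library. SDC2 fell by 0.27, with an SE of 0.05 (0.827-fold, 95% interval 0.774 to 0.883, edgeR adjusted p = 3.13e-05), and was at -0.21 ± 0.04 with the trend removed.

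SDC1 (ENSG00000115884), best known from epithelia and plasma cells, had 26.3, 26.5 and 27.9 CPM in SMG, against 30.4, 33.3 and 28.8 CPM in NG. The groups did not overlap, but the highest SMG library and the lowest NG library were close. SDC1 fell by 0.19, with an SE of 0.06 (0.874-fold, 95% interval 0.803 to 0.951, edgeR adjusted p = 0.0118). With the trend removed it was at -0.31 ± 0.05 (adjusted p = 4.87e-05). The call ended without SMG replicate 1 (adjusted p = 0.0529), SMG replicate 2 (0.0532) or NG replicate 2 (0.0950), and with DESeq2 (0.0678).

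SDC4 (ENSG00000124145), which works with integrins at focal adhesions and binds protein kinase C alpha, had 5.15, 4.80 and 5.30 CPM in SMG, against 6.08, 4.87 and 7.92 CPM in NG. NG replicate 2 lay among the SMG libraries and NG replicate 3 far above them. SDC4 was at -0.30 ± 0.13 (edgeR adjusted p = 0.0815), and its value depended on which NG library was left out. Without NG replicate 2 it was at -0.44 (adjusted p = 0.00852), and without NG replicate 3 at -0.12 (adjusted p = 0.521). Its processed pseudogene SDC4P had 0 counts in every library.

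The relation between members can be given as a ratio of counts within each library, which does not depend on how libraries are scaled. GPC4 counts were 1.31, 1.31 and 1.27 times those of GPC6 in SMG, against 0.849, 0.866 and 0.861 times in NG. In counts, GPC4 thus outnumbered GPC6 in each SMG library, and GPC6 outnumbered GPC4 in each NG library. Counts are not divided by transcript length, and the longest transcript of GPC6 is longer (6467 bases, against 4960 for GPC4). Per kilobase of that transcript GPC4 was above GPC6 in both groups. Its mean was 20.8 CPM per kb against 12.3 in SMG, and 19.1 against 17.1 in NG. The log2 ratio differed by 0.59, where GPC6 alone was at -0.47 and GPC4 alone at 0.12. For the neighbours on chromosome X, the ratio of GPC4 to GPC3 was 1.26 ± 0.0224 in SMG and 1.04 ± 0.0252 in NG (SD, n = 3 each). The ratio of GPC1 to GPC6 was 1.59 ± 0.0621 in SMG and 0.872 ± 0.0779 in NG, and that of SDC3 to SDC2 was 3.85 ± 0.248 in SMG and 3.15 ± 0.233 in NG. The pairs were chosen with the members' changes known, so that the ratios describe those changes again. An exact permutation test on the log2 ratio gave p = 0.1 for each pair. This was the smallest p possible, so the test could not pass. The ratios keep the trend over transcript length and GC. With it removed, SDC3 was at -0.13 and SDC2 at -0.21, GPC1 at 0.21 and GPC6 at -0.43, and GPC4 at 0.15 and GPC3 at -0.15. The part of the trend in the ratios was not tested.

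**Figure D3:**
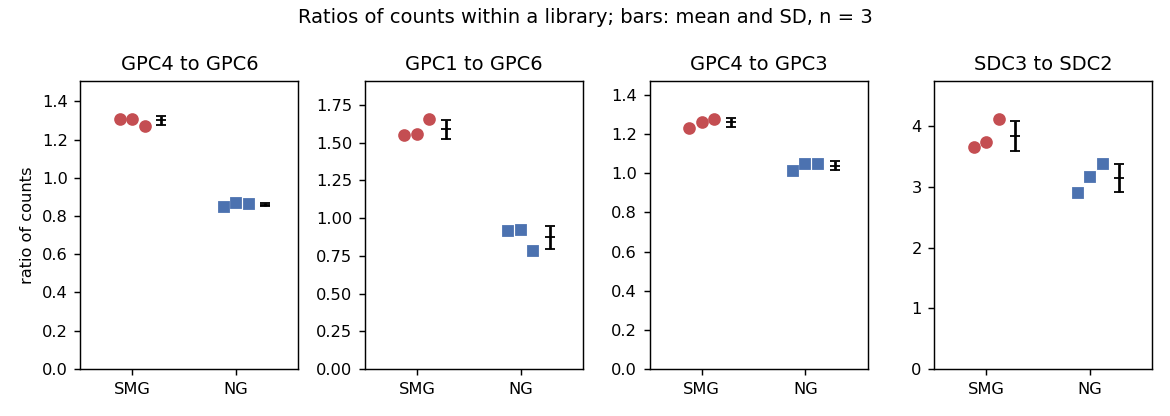
Ratio of the counts of 2 members within each library (vertical axes, each from 0), with SMG as circles, NG as squares, and the mean and SD beside each group (n = 3). The ratio of GPC4 to GPC6 lies between 1.27 and 1.31 in SMG and between 0.849 and 0.866 in NG.

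To set the members beside each other, CPM was divided by the length of the longest annotated transcript in kilobases. On this scale GPC2 stood far above the rest, at 113 ± 0.906 CPM per kb in SMG and 98.9 ± 4.73 in NG (SD, n = 3 each). It made up 52.9% to 53.7% of the summed glypican level in SMG and 49.6% to 51.4% in NG. In SMG the order went on with SDC3 (34.1 CPM per kb), GPC1 (34.0), GPC3 (32.0), GPC4 (20.8), SDC2 (15.1), GPC6 (12.3), SDC1 (8.17), SDC4 (1.95) and GPC5 (0.169). In NG it went on with GPC3 (35.6 CPM per kb), SDC3 (33.7), GPC1 (25.9), GPC4 (19.1), SDC2 (18.2), GPC6 (17.1), SDC1 (9.36), SDC4 (2.41) and GPC5 (0.148). Neighbours whose libraries overlapped were SDC3 and GPC1 in SMG, and GPC3 and SDC3, and GPC4 and SDC2, in NG. GPC1 thus stood above GPC3 in SMG and below it in NG. The place of GPC1 rests on the length used, since with the union of all its exons it stood at 19.4 CPM per kb in SMG and 14.7 in NG, below GPC3 and GPC4 in both groups.

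Summed over the 6 genes, glypicans came to 213, 215 and 208 CPM per kb in SMG, against 195, 203 and 192 in NG. The 4 syndecans came to 57.8, 60.4 and 59.7 CPM per kb in SMG, against 62.4, 63.6 and 65.1 in NG. The sums did not overlap in either family, with glypicans higher and syndecans lower in SMG. With the union of exons as length, the glypican sums were 154 to 160 CPM per kb in SMG and 148 to 154 in NG, so that the groups met. Within the syndecans SDC3 held 56.5% to 58.4% of the summed level in SMG and 51.4% to 54.5% in NG. GPC6 held 5.74% to 5.83% of the glypican sum in SMG and 8.37% to 9.06% in NG. The sums and shares were taken without removing the trend over transcript length and GC.

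**Figure D4:**
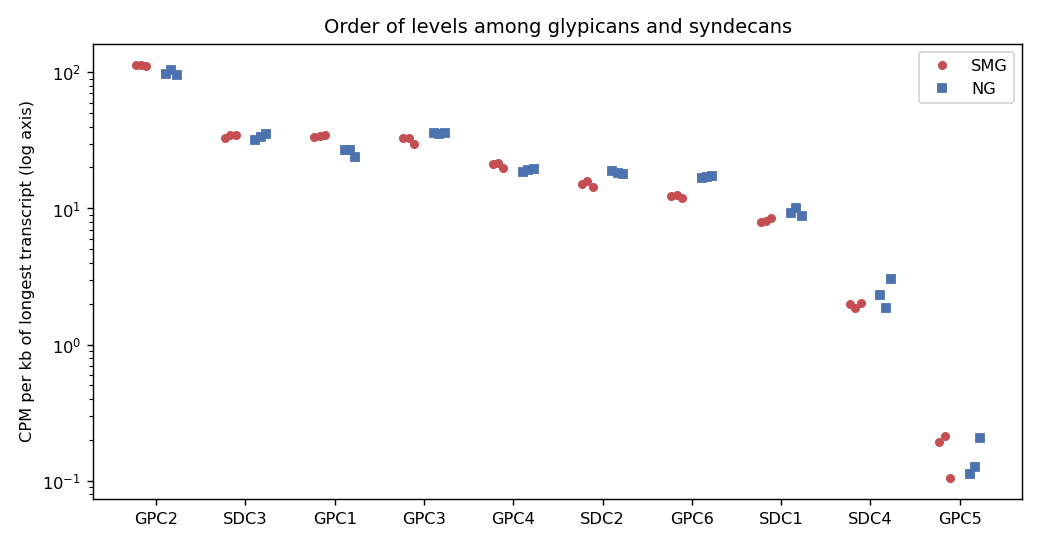
CPM per kilobase of the longest transcript (vertical log axis) for each member and library, with SMG as circles to the left of NG as squares, in the order of the SMG means. GPC2 leads at 113 in SMG and 98.9 in NG, and GPC5 is lowest at 0.169 in SMG and 0.148 in NG.

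The genes that build and process the sugar chains moved in both directions. Of 15 genes for the linker and the backbone of heparan sulfate, 3 rose, 1 fell and 11 did not pass (median 0.00, 1 higher and 1 lower with the trend removed). XYLT1, which adds the first sugar to the core protein, had 28.8, 29.4 and 30.1 CPM in SMG, against 23.4, 24.1 and 24.2 CPM in NG (0.30 ± 0.06, edgeR adjusted p = 1.27e-04). B4GALT7 and B3GALT6, which add galactose to the linker, were at 0.28 and 0.23, and with the trend removed at 0.19 (adjusted p = 0.0721) and 0.09 (0.278). Without SMG replicate 2 or 3 the adjusted p of B4GALT7 was 0.0996 or 0.0845, with DESeq2 it was 0.0609, and without SMG replicate 1 that of B3GALT6 was 0.0660. EXT2, a subunit of the chain polymerase, fell (-0.13 ± 0.04), a call that ended without SMG replicate 2 (adjusted p = 0.0569), SMG replicate 3 (0.0515) or NG replicate 2 (0.0783), with DESeq2 (0.0673) and with no filter (0.0509). Its partner EXT1 was at 0.04 ± 0.05 (adjusted p = 0.505).

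Of 17 tested genes for sulfation and epimerisation, 5 rose and 4 fell (median 0.06), and with the trend removed 4 rose and 4 fell. NDST1, which starts chain modification by N-deacetylation and N-sulfation, had 214, 210 and 215 CPM in SMG, against 176, 174 and 167 CPM in NG. It rose by 0.31 ± 0.03 (edgeR adjusted p = 5.09e-08), and by 0.16 with the trend removed. The 3-O-sulfotransferases HS3ST3B1 (0.26 ± 0.06) and HS3ST5 (0.25 ± 0.08) rose. The call of HS3ST5 ended without SMG replicate 1 (adjusted p = 0.0576), SMG replicate 3 (0.0624) or NG replicate 3 (0.0815), and with DESeq2 (0.0784). PAPSS2, which makes the sulfate donor, fell at a low level, to 1.49 ± 0.264 CPM in SMG, against 2.20 ± 0.258 CPM in NG (-0.57 ± 0.20, edgeR adjusted p = 0.0233). That call ended without SMG replicate 1 (adjusted p = 0.0883), SMG replicate 3 (0.0922) or NG replicate 1 (0.146), and with DESeq2 (0.168). PAPSS1, which makes the same donor, was far more abundant, at 120 ± 1.96 CPM in SMG, against 141 ± 5.96 CPM in NG. PAPSS1 fell too (-0.23 ± 0.04, edgeR adjusted p = 1.59e-05, and -0.17 with the trend removed). Of 10 tested genes for extracellular editing and lysosomal breakdown, 3 rose and 1 fell (median 0.01), and with the trend removed 3 rose and 2 fell. IDUA, the lysosomal iduronidase, rose (0.51 ± 0.10, and 0.33 with the trend removed). The lysosomal sulfatase SGSH was at 0.23 ± 0.06, and its call ended with the trend removed (0.08, adjusted p = 0.379). The extracellular sulfatase SULF2 fell (-0.13 ± 0.04).

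Of 13 enzymes known to cut glypicans or syndecans or their anchors, or related to such enzymes, 1 rose and 4 fell (median -0.11). With the trend removed 1 rose and 5 fell. The gene that rose was GDPD5, also called GDE2, a surface enzyme that cuts GPI anchors, is known to release GPC6 from cells and in mouse and chick promotes motor neuron differentiation. It had 38.8, 41.2 and 40.3 CPM in SMG, against 28.9, 27.2 and 25.4 CPM in NG, with a wide gap between the groups (0.56 ± 0.06, edgeR adjusted p = 1.22e-08). NOTUM, another enzyme that releases glypicans, was below 1 CPM in both groups. The proteases ADAMTS1 (-0.45 ± 0.09), MMP14 (-0.36 ± 0.11), MMP16 (-0.12 ± 0.04) and ADAM10 (-0.12 ± 0.03) fell. The call of MMP14 ended without SMG replicate 1 (adjusted p = 0.0627), SMG replicate 3 (0.0543) or NG replicate 2 (0.0898), and with DESeq2 (0.0536). That of MMP16 ended without SMG replicate 1 (0.0521), SMG replicate 2 (0.113) or NG replicate 3 (0.0753), with DESeq2 (0.0674) and with library size scaling alone (0.0511), and that of ADAM10 without SMG replicate 3 (0.0515). No protein or shed ectodomain was measured.

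Of 11 partners of the syndecan tail and their associates, 3 rose and 3 fell, and with the trend removed 0 rose and 4 fell. SDCBP (syntenin), which binds the tails of all syndecans, fell (-0.19 ± 0.04, edgeR adjusted p = 1.1e-04), as did PDCD6IP (ALIX), which joins it in exosome formation (-0.23 ± 0.03), and the membrane linker EZR (-0.16 ± 0.05, with the call ended without SMG replicate 1, adjusted p = 0.0827). GIPC1, a PDZ protein, was at 0.19 ± 0.05, and its call ended with the trend removed (0.05, adjusted p = 0.519) and without SMG replicate 2 (0.15, adjusted p = 0.0534). CASK, another PDZ partner, did not pass (-0.01 ± 0.03).

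Surface partners and ligands had 6 higher and 4 lower of 17 tested (median 0.14), and with the trend removed 4 higher and 5 lower (median 0.09). PTPRS, a receptor phosphatase that binds heparan sulfate and glypicans, had 665, 682 and 685 CPM in SMG, against 554, 545 and 505 CPM in NG (0.34 ± 0.03, edgeR adjusted p = 8.22e-09, and 0.15 with the trend removed). The UNC5 receptors UNC5C (0.34 ± 0.04) and UNC5D (0.36 ± 0.06) rose, and UNC5B fell (-0.32 ± 0.07). UNC5D is known to bind GPC3 in the developing cortex. NLGN1, a postsynaptic adhesion protein that binds heparan sulfate on neurexins, fell (-0.41 ± 0.06). PTN, the pleiotrophin that SDC3 binds, did not pass (-0.15 ± 0.14), and its relative MDK (midkine) fell (-0.14 ± 0.04).

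Other proteoglycans that can carry heparan sulfate had 4 higher and 2 lower of 11 tested (median 0.01), and 4 higher and 4 lower with the trend removed. AGRN, the agrin of the neuromuscular junction, had 349, 373 and 377 CPM in SMG, against 285, 306 and 248 CPM in NG (0.39 ± 0.08, edgeR adjusted p = 0.0121, and 0.14 with the trend removed). SPOCK1 (0.39 ± 0.05), NRXN2 (0.34 ± 0.04, and 0.13 with the trend removed) and NRP1 (0.57 ± 0.03) rose, while SPOCK2 (-0.22 ± 0.05) and SPOCK3 (-0.31 ± 0.07) fell. Among the genes named here IDUA, SGSH, SULF2, AGRN, NRP1, XYLT1, NDST1, PAPSS2, UNC5C, ADAM10, CASK, MMP16, EZR and PDCD6IP share exon bases with another annotated gene, and their values are uncertain to that extent. The same holds for GPC6, as given above, and for the markers GFAP and POU5F1 below.

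**Figure D5:**
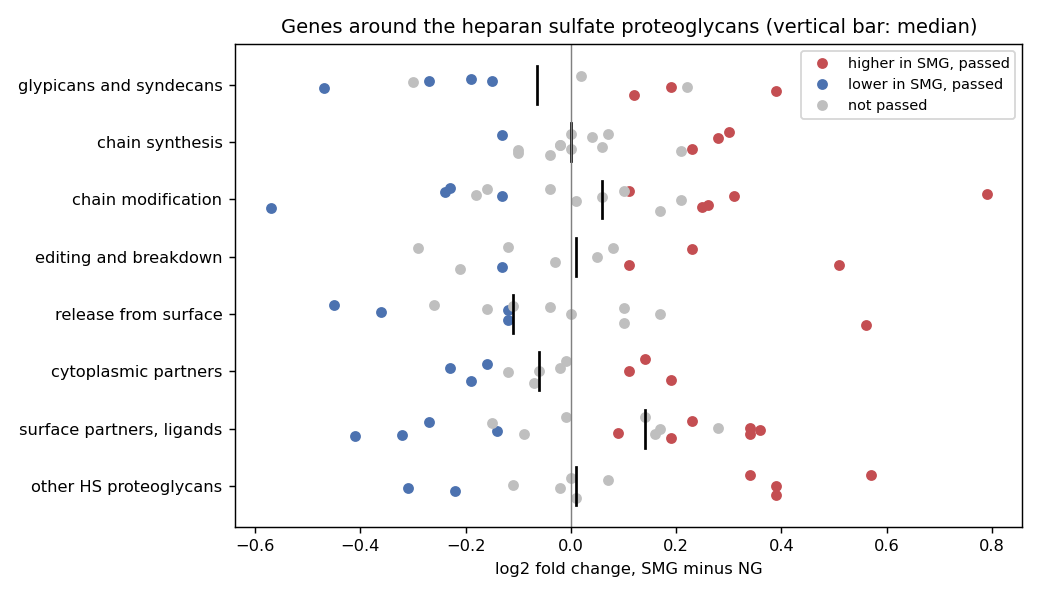
Log2 fold change, SMG minus NG (horizontal axis), of each tested gene (point) in the members and 7 lists of related genes, coloured by call, with the median as a vertical bar. Calls lie on both sides of 0 in every list, and the medians run from -0.11 for release enzymes to 0.14 for surface partners.

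Marker genes of cell types that the cultures could hold are given beside the members. Of all genes tested 17.3% were higher and 18.5% lower, and 31.3% passed with the trend removed. Motor neuron markers had 4 higher and 0 lower of 7, with a summed level of 669 to 700 CPM in SMG and 566 to 598 CPM in NG. Progenitor markers had 0 higher and 3 lower of 8, with 3238 to 3401 CPM in SMG and 3343 to 3613 CPM in NG. Of the astrocyte list 2 of 6 genes were tested and both were lower, with 61.7 to 67.6 CPM summed in SMG and 78.8 to 83.9 CPM in NG, and the defining markers GFAP, AQP4 and S100B had 0 to 6 counts per library. Oligodendrocyte lineage markers summed to 237 to 239 CPM in SMG and 249 to 276 CPM in NG, with 1 of 3 tested lower. Mesenchymal, endothelial and epithelial lists were low, at 3.16 to 4.42, 1.75 to 2.17 and 8.63 to 9.92 CPM in SMG and 4.69 to 4.90, 2.17 to 2.77 and 10.8 to 13.1 CPM in NG, with 1 of 3, 1 of 3 and 2 of 3 tested genes lower. Pluripotency markers summed to 74.1 to 81.1 CPM in SMG and 83.5 to 89.5 CPM in NG, with 1 of 2 tested lower, while POU5F1 and NANOG had at most 4 counts in any library. General neuron markers had 2 higher and 2 lower of 7, with 8658 to 8822 CPM in SMG and 8505 to 9120 CPM in NG. No marker was at 0 in all libraries. With the trend removed, motor neuron markers had 3 higher and 0 lower, general neuron markers 4 higher and 1 lower, progenitor markers 0 higher and 5 lower, astrocyte markers 1 lower and oligodendrocyte lineage markers 0 lower, and the counts of the other marker lists were as before. The part of these shifts in the changes of the members was not tested.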

How the data were processed

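RNA of 6 libraries, 3 SMG and 3 NG, was analysed from a deposited table of raw counts per Ensembl gene prepared by the authors. Per the submitters' processing notes the tools were HISAT2, SAMtools, featureCounts and DESeq2, on build hg19, with no role or version named. No source used here gives the annotation, strand setting or handling of multi-mapping reads. An mRNA library kit was applied to total RNA, per the labels' protocols.

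Symbols came from a table of gene names. GENCODE 29, on another build, gave transcript length, GC content, gene type and exon overlap. The default filterByExpr of edgeR kept 17803 genes, and after TMM scaling SMG was tested against NG with glmQLFit (robust) and glmQLFTest, adjusted by Benjamini-Hochberg over all genes tested. Intervals are 95% t intervals of the fitted log2 fold change. The scripts were tested on simulated data with 50 genes changed at each fold, far fewer than were called here. Of changes of 1.2-fold 42% were recovered, of 1.5-fold 74% and of 2-fold 94%, and 6.1% of the calls were false. The members, the lists of related genes and markers, and the alternatives were chosen with earlier results of these data known. From each list of related genes up to 4 that passed, with the largest absolute change and a mean of at least 2 CPM in a group, were named, of which 1 is not reported here. ADAM10, CASK, EXT1, MDK, NOTUM, PTN, SPOCK2, SPOCK3 and UNC5B were added after their values were seen. PAPSS1 was added in the same way and is left out of the tally of added genes below. Alternatives were DESeq2, limma-voom, other scalings and filters, no robust estimation, the replicate number as a block, a length and GC offset (natural splines, 4 degrees of freedom each), protein-coding genes alone, and leaving out each library. Versions were DESeq2 1.42.0, limma 3.58.1, edgeR 4.0.16 and R 4.3.3. Promoter sequences are RefSeq's, on GRCh38.p14.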

Additional observations from a re-analysis of the deposited data

How the results depend on the processing

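GPC1, GPC2, GPC6 and SDC2 kept their direction and stayed past the threshold under all 17 alternatives, with ranges of 0.21 to 0.43, 0.08 to 0.23, -0.49 to -0.43 and -0.31 to -0.21. GPC3 lost its call under 1 alternative, and GPC4 and SDC1 under 4 each, as given beside their values, and the cause was not tested. SDC3, which did not pass, was at -0.13 (adjusted p = 0.0734) with the length and GC trend removed and at -0.02 (adjusted p = 0.824) without NG replicate 1, where the value reported is 0.02. Leaving out a library each time put it between -0.02 and 0.06. GPC5 had no adjusted p with DESeq2 and was not kept by the filter of 1 CPM in 3 libraries. The counts of members called were 2 to 3 higher and 3 to 4 lower under every alternative. The replicate block gave 3 higher and 4 lower members, and 3077 higher and 3256 lower genes of all tested, against 3080 and 3296 without it. Libraries with the same number did not deviate together (correlations of -0.036, 0.101 and -0.0479, against -0.119 to 0.122 for other pairs). This shows no pairing by number, but with 3 libraries per group it cannot exclude one. The block changed no call of a member. Without scaling beyond library size 3440 genes were higher and 2804 lower, and the median of all genes moved by 0.02. Counts of calls in the lists of related genes are small and moved by more than 1.5 times in places. Chain modification ran from 2 to 5 higher and 2 to 4 lower, chain synthesis from 1 to 3 higher and 0 to 2 lower, and editing and breakdown had 1 to 2 lower. Release enzymes ran from 2 to 5 lower, tail partners from 0 to 3 higher, and other proteoglycans from 2 to 4 lower. Of 476 values of the 28 named list genes, 440 kept their call, 36 no longer passed and 0 changed direction. Of 167 values of 10 genes added after their values were seen, PAPSS1 left out, 163 kept their call, 1 no longer passed and 3 that did not pass changed sign. CASK, which did not pass, turned to 0.01 with library size scaling and PTN, which did not pass either, to 0.04 without NG replicate 1. Leaving out a library each time put CASK between -0.02 and 0.00305 and PTN between -0.25 and 0.04. With the union of exons as length, 11 of 20 group levels per length moved by more than 1 SD. Depth limits GPC5 most and SDC4 next, and SDC4 also differed among the NG libraries (6.08, 4.87 and 7.92 CPM).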
